A study of Homo sapiens with 6 samples.

Results

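The keratin gene family was examined in human BJ fibroblasts sorted on day 8 of reprogramming towards pluripotency. Members were the rows of the deposited expression table whose symbol is KRT followed by digits and at most 1 letter from A to C, which leaves out keratin-associated proteins and pseudogenes. This gave 55 of 27788 genes, 28 of them type I, 26 type II and 1 (KRT222) neither. BJ is an established line of human foreskin fibroblasts. All cells had received lentivirus with the polycistronic constructs O2S and K2M, so every group carries OCT4, SOX2, KLF4 and MYC, and all grew in serum and then in medium for embryonic stem cells. They were dissociated with trypsin and sorted by the surface proteins CD13 and CD201 into 3 groups of 2 libraries, 6 in all. Double-negative cells are CD13-CD201-, CD201-only cells are CD13-CD201+, and double-positive cells are CD13+CD201+. Neither uninfected fibroblasts nor finished pluripotent cells were analysed here. The labels do not say whether the 2 libraries of a group came from separate cultures, so p-values measure the spread between these libraries, which may be technical.

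Keratins are intermediate filament proteins that assemble only as pairs of a type I and a type II chain, and which pair a cell makes depends on the kind of epithelium it belongs to. KRT8 and KRT18 form the filaments of simple, single-layered epithelia and are also made by pluripotent cells, with KRT7 and KRT19 added in ducts and other simple linings. KRT5 and KRT14 are the pair of basal cells in stratified epithelia such as epidermis, and KRT6A, KRT16 and KRT17 are induced in wounded or hyperproliferative epidermis. Fibroblasts build their filaments mainly from vimentin.

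Libraries were poly-A selected, and the values are the authors' FPKM (fragments per kilobase of transcript, scaled to library size), which are therefore per length. Comparisons between genes also depend on how reads shared by several genes were assigned, which was not tested. The sum over all genes ran from 489152 to 521352 FPKM per library and 11983 to 12168 genes reached 1 FPKM. The depth was approximated from the steps between the lowest values at 18.1 to 24.7 M fragments per library (M, mega), with an interquartile range over genes of 14.5 to 23.4 M for the first double-negative library. The lowest correlation between the libraries of a group was 0.992, and between libraries of different groups it reached 0.981 (Pearson, across genes, which are not independent). Group values are mean ± SD with n = 2. Log2 changes are on the scale of log2(FPKM + 1), which understates the fold of genes near 1 FPKM, and were fitted with limma over 12210 genes whose mean reached 1 FPKM. A gene is called at a Benjamini-Hochberg adjusted p under 0.05 over all of them.

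Keratin mRNA was abundant in every sorted group and was almost wholly KRT8 and KRT18. The family summed to 3125 and 3113 FPKM in the double-negative libraries, 4193 and 4124 FPKM in the CD201-only libraries, and 2285 and 2219 FPKM in the double-positive libraries. CD201-only cells were thus the highest and double-positive cells the lowest, with no overlap between groups. The 4 simple-epithelium keratins made up 98.8% ± 0.0416 of the family's sum in double-negative cells, 97.7% ± 0.0226 in CD201-only cells and 92.4% ± 0.274 in double-positive cells. Basal and wound keratins, 8 genes, made up 0.865% ± 0.0211, 1.85% ± 0.0135 and 6.77% ± 0.249 in the same order. In FPKM they summed to 26.97 ± 0.735 in double-negative cells, 77.0 ± 0.346 in CD201-only cells and 152 ± 2.48 in double-positive cells. The quotient of simple over basal and wound keratins was 114 ± 2.83 in double-negative cells, 52.8 ± 0.397 in CD201-only cells and 13.7 ± 0.543 in double-positive cells. These sums are a description without a test. In these bulk libraries, fewer cells that express a gene and less of its RNA per cell cannot be told apart.

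Of the 55 members 12 passed the filter of a mean of 1 FPKM, namely all 4 simple-epithelium keratins, 2 of 3 basal, 3 of 5 wound, and KRT10, KRT13 and KRT80. Of the other 43, 14 were listed at 0 in all 6 libraries, and 29 were above 0 somewhere. The filter uses the mean of all libraries, so a member expressed in 1 group alone could still fall under it. KRT13 and KRT80 had group means under 1 FPKM in double-negative cells and passed through the other groups. Just inside the threshold was KRT80 with a mean of 1.62 FPKM, and just outside were KRT3 with 0.555 and KRT4 with 0.493 FPKM. Of the 12, 11 passed limma's F test for any difference between the 3 groups (adjusted p under 0.05), against 73% of all tested genes, and KRT10 did not (adjusted p of 0.538). In a fit without the filter, the 29 low members had 8 calls in double-negative against double-positive, 4 in CD201-only against double-positive and 2 in double-negative against CD201-only cells, where 44.3%, 37.1% and 21.6% of all genes were called.

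**Figure D1:**
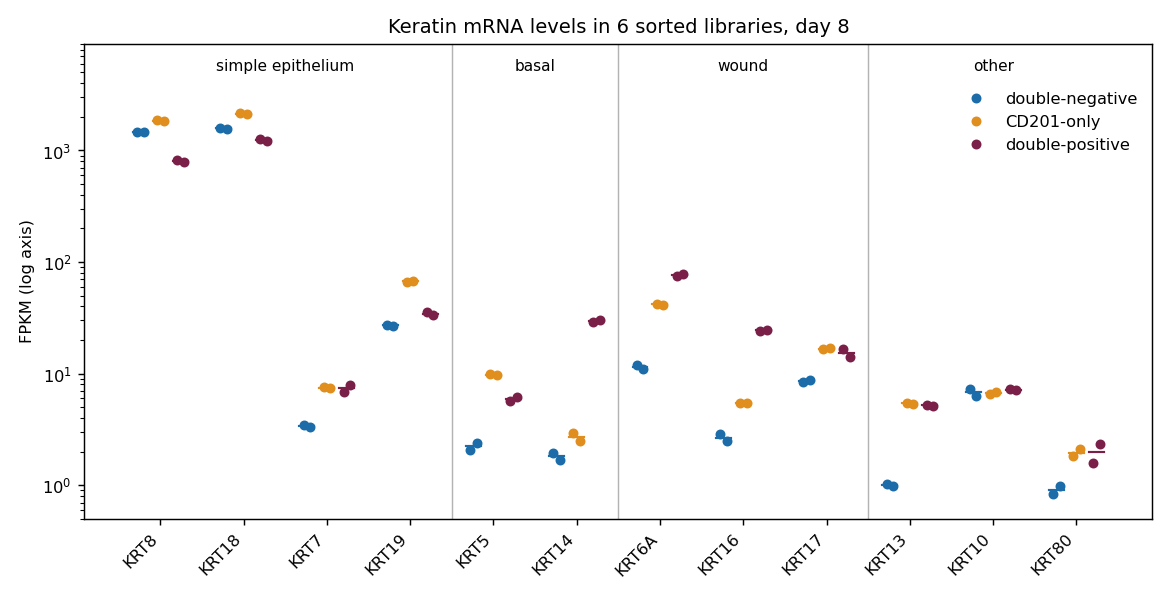
FPKM (log axis) of the 12 keratins whose mean reached 1 FPKM in each of the 6 libraries, with 2 points per sorted group and a line at their mean. KRT8 and KRT18 sit between 782 and 2156 FPKM, all other keratins at or under 78.0 FPKM, and KRT14 and KRT16 are highest in the double-positive libraries.

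KRT8, the type II chain of simple epithelia, was at 1470.4 and 1477 FPKM in double-negative cells, 1869 and 1834 FPKM in CD201-only cells, and 817 and 782 FPKM in double-positive cells. Its partner KRT18, a type I chain, was at 1586 and 1569 FPKM in double-negative cells, 2156 and 2122 FPKM in CD201-only cells, and 1256 and 1224 FPKM in double-positive cells. Both genes had the same order of groups, CD201-only, double-negative and double-positive, and no groups overlapped. KRT18 ranked between 26 and 58 among all genes of a library and KRT8 between 39 and 82. KRT8 rose by 0.88 on the log2 scale (adjusted p = 3.91e-07, SE 0.0254) in double-negative and by 1.21 (adjusted p = 1.41e-07, SE 0.0254) in CD201-only cells, each against double-positive cells. KRT18 rose less, by 0.35 (adjusted p = 1.04e-05, SE 0.0214) and 0.79 (adjusted p = 4.16e-07, SE 0.0214). Between the CD13-negative groups both fell in double-negative cells, KRT8 by 0.33 (adjusted p of 9.26e-05) and KRT18 by 0.44 (adjusted p of 1.18e-05).

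The other simple-epithelium keratins were far less abundant and followed KRT8 and KRT18 only in part. KRT19 changed in their direction in both comparisons with CD201-only cells, but not in double-negative against double-positive cells. KRT19, a type I chain of ducts and also of some basal cells, was at 27.5 and 26.8 FPKM in double-negative cells, 66.9 and 67.4 FPKM in CD201-only cells, and 35.8 and 33.3 FPKM in double-positive cells. Its level was highest in CD201-only cells and lowest in double-negative cells, with no overlap. KRT19 rose by 0.94 (adjusted p = 2.78e-06, SE 0.0415) in CD201-only cells and fell by 0.34 (adjusted p = 0.000332, SE 0.0415) in double-negative cells, each against double-positive cells. KRT7, a type II chain of glandular linings, was at 3.45 and 3.34 FPKM in double-negative cells, 7.56 and 7.42 FPKM in CD201-only cells, and 6.90 and 7.87 FPKM in double-positive cells. Double-negative cells stood below the other groups, which overlapped. KRT7 fell by 0.93 (adjusted p = 3.24e-05, SE 0.0721) in double-negative against double-positive cells, and its change in CD201-only cells was 0.02 (95% interval -0.15 to 0.19, adjusted p = 0.825). The simple-epithelium keratins therefore divided, with KRT8 and KRT18 higher and KRT7 and KRT19 lower in double-negative than in double-positive cells.

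The basal pair came apart between groups. KRT14, the type I chain of basal keratinocytes, was at 1.94 and 1.70 FPKM in double-negative cells, 2.93 and 2.51 FPKM in CD201-only cells, and 29.1 and 30.3 FPKM in double-positive cells. The double-positive libraries stood far above all others, 16.4-fold above double-negative and 10.9-fold above CD201-only cells in group means. KRT14 fell by 3.45 on the log2 scale (adjusted p = 1.38e-07, SE 0.0791) in double-negative and its change was -3.05 (adjusted p = 3.48e-07, SE 0.0791) in CD201-only cells. Its type II partner KRT5 was at 2.05 and 2.41 FPKM in double-negative cells, 9.84 and 9.74 FPKM in CD201-only cells, and 5.68 and 6.18 FPKM in double-positive cells. KRT5 was thus highest in CD201-only cells, where KRT14 was near its lowest level. KRT5 rose by 0.64 (adjusted p = 0.000369, SE 0.0774) in CD201-only and fell by 1.10 (adjusted p = 1.97e-05, SE 0.0774) in double-negative cells, each against double-positive cells. KRT15, a type I keratin of basal and stem-like keratinocytes, was under the filter and reached at most 0.570 FPKM. In double-negative cells KRT14 rested on only about 55 and 56 fragments per library by the approximate depth, against about 769 and 908 in double-positive cells.

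The 3 tested wound keratins were lowest in double-negative cells. KRT6A, a type II chain, was at 12.1 and 11.0 FPKM in double-negative cells, 41.9 and 41.6 FPKM in CD201-only cells, and 74.7 and 78.0 FPKM in double-positive cells. Each group stood apart from the next. KRT6A fell by 2.62 (adjusted p = 6.13e-08, SE 0.0472) in double-negative and by 0.86 (adjusted p = 7.65e-06, SE 0.0472) in CD201-only cells, each against double-positive cells. KRT16, a type I partner of KRT6A, was at 2.88 and 2.47 FPKM in double-negative cells, 5.51 and 5.47 FPKM in CD201-only cells, and 24.3 and 24.8 FPKM in double-positive cells. This is the same order of groups as for KRT6A, with a wider gap between CD201-only and double-positive cells. KRT16 fell by 2.80 (adjusted p = 1.72e-07, SE 0.0674) in double-negative and its change was -1.98 (adjusted p = 1.03e-06, SE 0.0674) in CD201-only cells. KRT17, a type I chain of wounded skin and hair follicle, was at 8.41 and 8.74 FPKM in double-negative cells, 16.5 and 16.9 FPKM in CD201-only cells, and 16.6 and 14.2 FPKM in double-positive cells. CD201-only and double-positive libraries overlapped for this gene and double-negative libraries lay below both. KRT17 fell by 0.77 (adjusted p = 7.94e-05, SE 0.0716) in double-negative cells, and its change in CD201-only cells was 0.11 (95% interval -0.05 to 0.28, adjusted p = 0.207). Without double-positive replicate 1 that change was 0.22 and was called (adjusted p of 0.0202).

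Basal and wound keratins are close paralogs, and reads can be shared between them, which bears on how far each value belongs to its own gene. Coding sequences from GENCODE release 29 (GRCh38) of KRT14 and KRT16 were 87.6% identical over 1392 aligned bases, those of KRT14 and KRT17 84.7% over 1296 bases, and those of KRT6A and KRT6C 97.9% over 1692 bases. For illustration, a stretch of 75 coding bases with the median number of variable positions is shown for the type I set, on the minus strand of chromosome 17. Capitals mark the 15 positions at which its members are not all the same.
KRT14 (chromosome 17, coding bases 301 to 375): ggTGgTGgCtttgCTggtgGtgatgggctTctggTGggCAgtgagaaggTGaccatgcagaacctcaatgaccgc
KRT16 (chromosome 17, coding bases 307 to 381): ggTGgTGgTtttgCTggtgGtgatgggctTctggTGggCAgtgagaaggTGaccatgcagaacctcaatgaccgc
KRT17 (chromosome 17, coding bases 208 to 282): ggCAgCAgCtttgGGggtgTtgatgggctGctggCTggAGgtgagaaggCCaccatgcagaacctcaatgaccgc
In this stretch KRT16 differs from KRT14 at 1 base and KRT17 at 14.

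Over whole transcripts, 23.8% of the windows of 50 bases in KRT14 and 22.0% in KRT16 also occur in a transcript of another gene. For windows of 100 bases the shares were 5.95% and 7.18%. KRT6A shared 39.1% of its windows of 50 bases, chiefly with KRT6C and KRT6B. Yet KRT6B was listed at no more than 0.0368 FPKM and KRT6C at no more than 0.108 FPKM in any library. KRT8 shared 39.7% and KRT18 35.1% of windows of 50 bases, mostly with their processed pseudogenes, of which the annotation holds 50 for KRT8 and 67 for KRT18. At 100 bases the shares were 7.25% for KRT8 and 0% for KRT18. Of these the expression table lists only KRT8P41 and KRT18P55, so the others have no value here. The highest keratin pseudogene in the table by its mean over the libraries, KRT18P55, averaged 0.0834 FPKM. KRT19, KRT7, KRT5, KRT13 and KRT80 shared at most 3.99% of windows of 50 bases and KRT10 shared 0. The sources used here give neither the read length nor the treatment of reads with several matches, so the effect of shared reads on these levels was not tested.

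Among the remaining tested keratins, KRT13, a type I chain of mucosal stratified epithelia, was at 1.02 and 0.978 FPKM in double-negative cells, 5.45 and 5.36 FPKM in CD201-only cells, and 5.27 and 5.17 FPKM in double-positive cells. It was low only in the double-negative libraries, where it fell by 1.64 (adjusted p = 1.59e-06, SE 0.067) against double-positive cells. KRT80, a type II keratin found in many epithelia, was at 0.841 and 0.990 FPKM in double-negative cells, 1.82 and 2.11 FPKM in CD201-only cells, and 1.57 and 2.36 FPKM in double-positive cells. It fell by 0.62 (adjusted p = 0.0061, SE 0.139) in double-negative cells and overlapped between the other groups. KRT10, a type I chain of the suprabasal epidermis, was at 7.29 and 6.33 FPKM in double-negative cells, 6.64 and 6.90 FPKM in CD201-only cells, and 7.34 and 7.08 FPKM in double-positive cells. KRT10 was not called in any comparison, and its partner in epidermis, KRT1, was listed above 0 in 1 library alone, at 0.0162 FPKM. The 26 hair keratins, of shaft and root sheath, reached at most 0.609 FPKM (KRT34 in double-positive cells), and 11 of them were listed at 0 throughout.

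Double-negative against double-positive cells asks what distinguishes cells lacking both surface proteins from those with both. Of the 12 tested keratins 2 (KRT8 and KRT18) rose, 9 fell and KRT10 was not called. Of all 12210 tested genes 66.6% were called, 42.1% higher and 24.5% lower. The median change was -0.85 for the keratins and 0.11 for all genes. Rescaled by median ratios, the median of all genes was 0.00164 and 48.1% of the called genes were higher, against 63.2% as deposited, while the keratin calls were the same. All 5 tested basal and wound keratins fell, with a median of -2.62, from -0.77 (KRT17) to -3.45 (KRT14).

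CD201-only against double-positive cells sets cells without CD13 against cells with it, where both carry CD201. Here 4 keratins (KRT8, KRT18, KRT19 and KRT5) rose, 3 (KRT14, KRT16 and KRT6A) fell and 5 were not called. Of all genes 58.7% were called, 35.8% higher and 22.9% lower. The median change was 0.03 for the keratins and 0.08 for all genes, and rescaling turned the share of called genes that were higher to 47.5%, against 61.0% as deposited. Of the 4 simple-epithelium keratins 3 rose (median 0.86), and of the 5 tested basal and wound keratins 3 fell and 1 rose (median -0.86). This comparison and the one above use the same double-positive libraries.

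Double-negative against CD201-only cells asks what differs with CD201 among CD13-negative cells. Of the 12 keratins 0 rose, 11 fell and KRT10 was not called, whereas of all genes 37.9% were called, 21.5% higher and 16.5% lower. Of the called genes 47.6% were higher after rescaling by median ratios, against 56.6% as deposited. The median change was -0.85 for the keratins and 0.04 for all genes. The steepest falls were those of KRT6A at -1.77 (adjusted p of 9.46e-07), KRT5 at -1.74 (adjusted p of 7.56e-06), KRT13 at -1.68 (adjusted p of 5.43e-06) and KRT19 at -1.28 (adjusted p of 2.25e-06). In this comparison KRT14 fell by 0.40 (adjusted p of 0.00726), which without double-negative replicate 2 was -0.34 and no longer called (adjusted p of 0.0527). KRT80 fell by 0.63 (adjusted p of 0.0114), and was no longer called when double-negative replicate 1 (adjusted p of 0.0744) or CD201-only replicate 2 (adjusted p of 0.0661) was left out. The number of genes called over the whole table was 2861 without double-negative replicate 1 and 3010 without double-negative replicate 2, against 4632 with all libraries. The keratins called numbered 10 in each case.

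**Figure D2:**
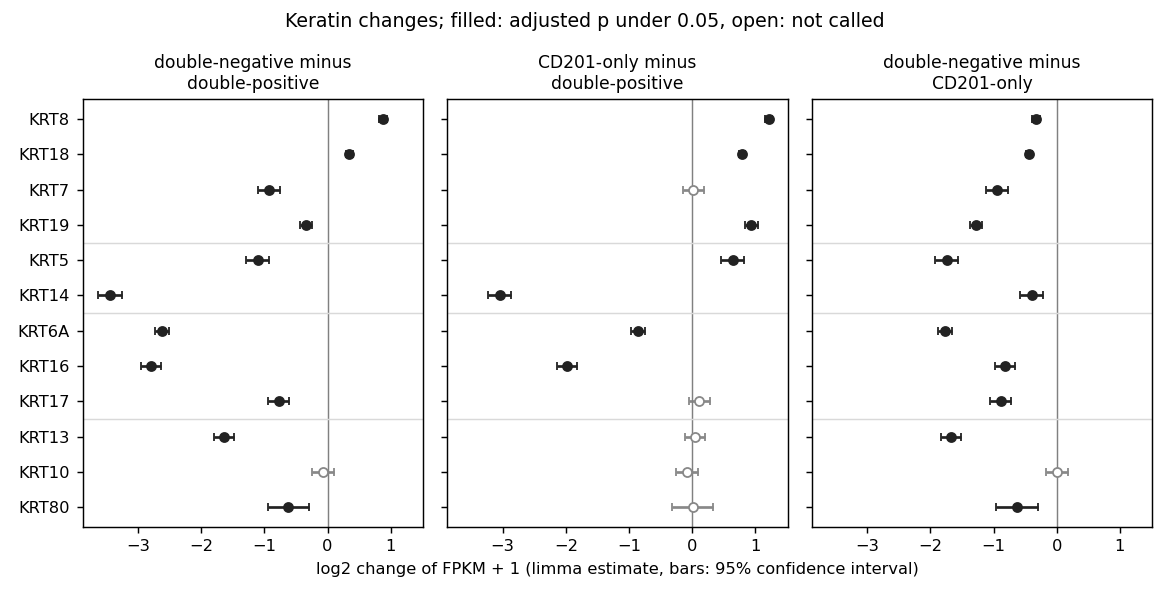
Log2 changes of FPKM + 1 for the 12 tested keratins in the 3 comparisons, as limma estimates with 95% confidence intervals, with filled points for genes called at an adjusted p under 0.05. KRT8 and KRT18 lie to the right of 0 in both comparisons with double-positive cells, KRT14 reaches -3.45, and in double-negative against CD201-only cells every keratin except KRT10 lies left of 0.

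Partner chains were compared as quotients of FPKM within a library, for which the design of 2 libraries against 2 allows no exact permutation p under 1 in 3, so they are given as values. KRT8 over KRT18 was 0.927 and 0.941 in double-negative cells, 0.867 and 0.864 in CD201-only cells, and 0.650 and 0.639 in double-positive cells. The listed value of KRT18 thus exceeded that of KRT8 in every library, most in double-positive cells. In double-negative cells the gap was small, and the effect of shared reads on it was not tested. KRT5 over KRT14 was 1.06 and 1.42 in double-negative cells, 3.36 and 3.87 in CD201-only cells, and 0.195 and 0.204 in double-positive cells. This quotient is above 1 in all CD13-negative libraries and below 1 in the double-positive libraries. In the first double-negative library it was only just above 1. By the approximate depth it rested there on about 93 fragments of KRT5 and 55 of KRT14. KRT6A over KRT16 was 4.19 and 4.47 in double-negative cells, 7.61 and 7.60 in CD201-only cells, and 3.08 and 3.14 in double-positive cells. All type II chains summed over all type I chains gave 0.918 ± 0.00991 in double-negative cells, 0.853 ± 0.00198 in CD201-only cells and 0.658 ± 0.00296 in double-positive cells. Without KRT8 and KRT18 the order of groups was the opposite, with 0.389 ± 0.000412, 0.595 ± 0.00482 and 0.800 ± 0.0486 in the same order.

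**Figure D3:**
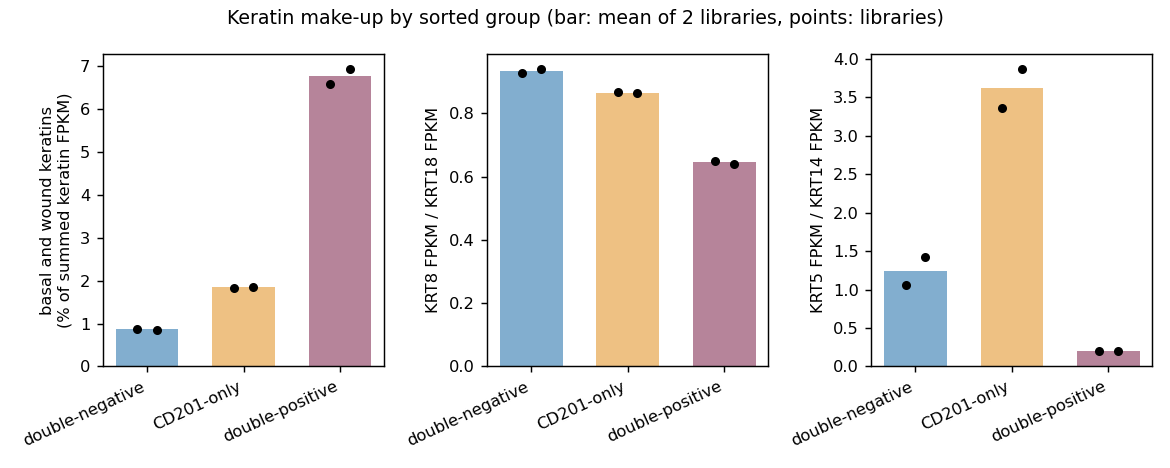
Share of basal and wound keratins in the summed keratin FPKM (left, percent), KRT8 over KRT18 (middle) and KRT5 over KRT14 (right), with bars for the mean of 2 libraries and points for the libraries. The mean share is 0.865% for double-negative, 1.85% for CD201-only and 6.77% for double-positive cells, and KRT5 over KRT14 is highest in CD201-only cells.

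The keratins lie in 2 clusters, 27 genes on chromosome 12 and 28 on chromosome 17, and their order in GENCODE release 29 was set beside the levels. KRT8 and KRT18 are neighbours at the end of the chromosome 12 cluster, where KRT18 is the lone type I gene, and they were the highest members in all groups. KRT6A and KRT5 are also neighbours there. KRT6A was highest in double-positive cells and KRT5 in CD201-only cells, so their order of groups differed. KRT14, KRT16 and KRT17 follow one another at the end of the chromosome 17 cluster, and KRT19 lies beyond KRT9 from them. KRT14 and KRT16 were highest in double-positive cells and KRT19 in CD201-only cells. Between KRT222 and KRT13, a run that holds KRT10 and the type I hair genes, KRT10 alone passed the filter.

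**Figure D4:**
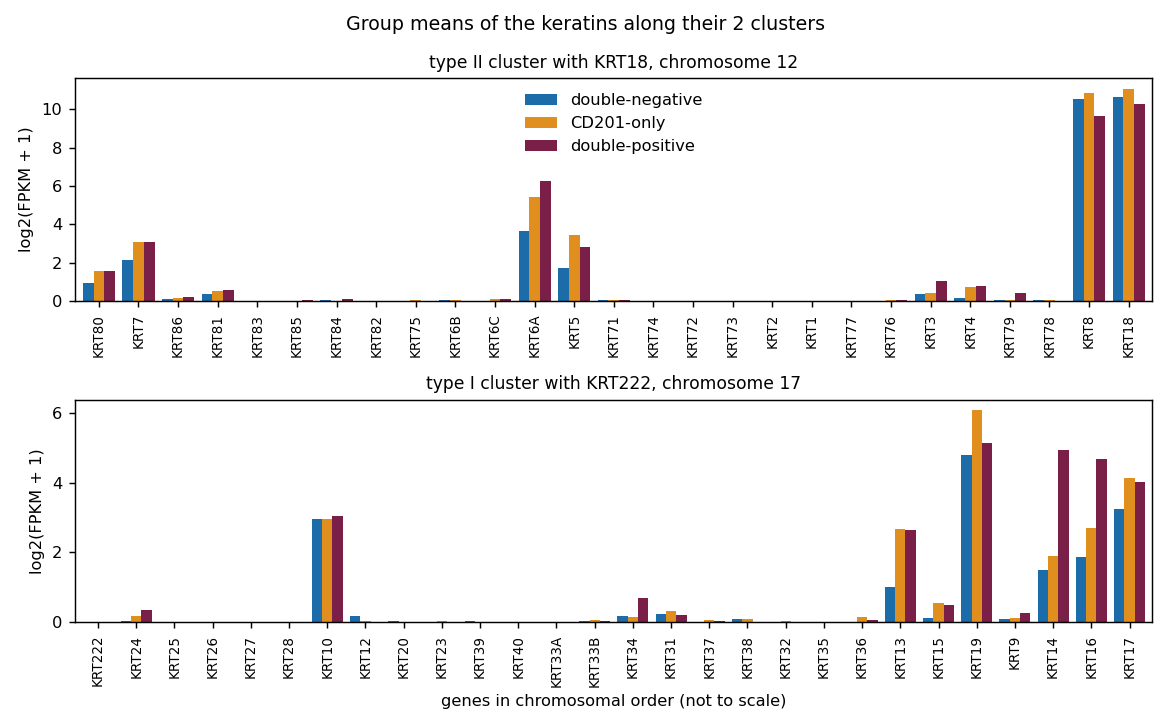
Group means as log2(FPKM + 1) of the 55 keratins in their chromosomal order on chromosome 12 (top) and chromosome 17 (bottom), with spacing not to scale. KRT8 and KRT18 at the right end of the top panel are the tallest, most genes in the middle of either cluster are near 0 apart from KRT6A, KRT5 and KRT10, and KRT14 and KRT16 are highest in double-positive cells.

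Genes that work with keratins were described from lists, whose counts are to be read beside the shares of all 12210 tested genes. In double-negative against double-positive cells 66.6% of all genes were called, 42.1% higher and 24.5% lower. In CD201-only against double-positive cells the share was 58.7% (35.8% and 22.9%), and in double-negative against CD201-only cells 37.9% (21.5% and 16.5%). Of 17 genes that link keratins to desmosomes and hemidesmosomes, 11 were tested. In double-negative against double-positive cells 4 rose and 5 fell (median -0.07), in CD201-only against double-positive cells 6 rose and 4 fell (median 0.25), and in double-negative against CD201-only cells 1 rose and 9 fell (median -0.79). The plakophilin PKP1, a desmosomal plaque protein, was at 0.579 and 0.501 FPKM in double-negative cells, 1.85 and 2.20 FPKM in CD201-only cells, and 4.597 and 4.693 FPKM in double-positive cells. It followed the order of KRT6A and KRT16, and fell by 1.87 (adjusted p of 3.20e-06) in double-negative cells relative to double-positive cells. PKP1 was the 1 tested linker with a group mean under 1 FPKM, in double-negative cells, and passed the filter through the other groups. The integrin chain ITGB4, which anchors keratins in hemidesmosomes, was at 8.35 and 8.23 FPKM in double-negative cells, 21.8 and 21.8 FPKM in CD201-only cells, and 25.6 and 24.3 FPKM in double-positive cells (log2 change -1.48 in double-negative against double-positive cells, adjusted p = 4.16e-07). The plakin EPPK1 and the hemidesmosomal collagen COL17A1 were instead highest in CD201-only cells, with changes of 1.07 (adjusted p of 8.98e-07) and 1.09 (adjusted p of 8.98e-07) against double-positive cells, and so was periplakin PPL at 0.91 (adjusted p of 5.27e-06). Desmoplakin DSP, the main desmosomal anchor of keratins, fell by 0.93 (adjusted p of 2.18e-06) in double-negative cells. The desmosomal cadherins DSC2 and DSC3 were listed at 0 in every library, and DSG2 and DSG3 reached at most 0.0417 and 0.133 FPKM.

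Vimentin, the filament protein of fibroblasts, had a higher FPKM than every keratin in the double-positive libraries alone. VIM was at 1420.3 and 1433 FPKM in double-negative cells, 1563 and 1578 FPKM in CD201-only cells, and 2527 and 2561 FPKM in double-positive cells. It was above KRT8 and KRT18 in the double-positive libraries and below both in the double-negative and CD201-only libraries. In double-negative cells the gap to KRT8, at 1470.4 and 1477 FPKM, was small. VIM fell by 0.83 (adjusted p = 1.24e-07, SE 0.0187) in double-negative and by 0.70 (adjusted p = 3.96e-07, SE 0.0187) in CD201-only cells, each against double-positive cells. Of 15 listed filament genes other than keratins 9 were tested, and in double-negative against double-positive cells 3 rose and 5 fell, among them the lamins LMNB1 (0.89, adjusted p = 2.07e-05) and LMNA (-0.53, adjusted p = 1.61e-06). The numbers for CD201-only against double-positive cells were 4 that rose and 5 that fell, and in double-negative against CD201-only cells 1 rose and 6 fell. DES, the muscle filament desmin, fell by 0.86 (adjusted p of 7.55e-05) in that last comparison.

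Regulators of epithelial fate, a list of transcription factors and splicing regulators, were mostly scarce. Of 17 listed, 7 were tested, and 8 stayed under 1 FPKM in every library. TP63, which basal keratinocytes need, reached at most 0.0405 FPKM. KLF5, a factor of simple epithelia and of pluripotent cells, was at 43.5 and 45.7 FPKM in double-negative cells, 29.4 and 31.9 FPKM in CD201-only cells, and 18.9 and 18.5 FPKM in double-positive cells. It rose by 1.21 (adjusted p of 1.47e-06) in double-negative and by 0.68 (adjusted p of 2.51e-05) in CD201-only cells, each against double-positive cells. ELF3, an epithelial ETS factor, had the order of KRT19 and KRT5, with 4.43 and 4.32 FPKM in double-negative cells, 11.2 and 10.9 FPKM in CD201-only cells, and 5.77 and 5.46 FPKM in double-positive cells. GRHL3, a factor of the epidermal barrier, had the order of KRT17 and KRT13 in that it was low in double-negative cells alone, where it fell by 1.21 (adjusted p of 2.34e-06) against double-positive cells. TFAP2C, a factor of surface ectoderm and trophoblast, rose by 0.77 (adjusted p of 6.53e-06) in double-negative cells. KLF4, one of the delivered factors and itself a factor of differentiating epidermis, fell by 0.43 (adjusted p of 1.22e-05) in double-negative and by 0.40 (adjusted p of 2.00e-05) in CD201-only cells, and its value may include vector reads. Over the list 3 rose and 3 fell in double-negative, and 4 rose and 1 fell in CD201-only, against double-positive cells. In double-negative against CD201-only cells 3 rose and 2 fell.

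Several genes of late epidermal differentiation were, like KRT14 and KRT16, highest in double-positive cells. Of 18 genes of the cornified envelope 10 were tested, 4 of them with a mean under 1 FPKM in at least 1 group. In double-negative against double-positive cells 1 rose and 8 fell (median -1.54), in CD201-only against double-positive cells 2 rose and 6 fell (median -1.13), and in double-negative against CD201-only cells 0 rose and 7 fell (median -0.37). SBSN, a secreted protein of the upper epidermis, was at 0.450 and 0.452 FPKM in double-negative cells, 0.544 and 0.556 FPKM in CD201-only cells, and 7.33 and 6.96 FPKM in double-positive cells. The change was -2.49 (adjusted p of 6.22e-07) in double-negative and -2.39 (adjusted p of 9.78e-07) in CD201-only cells, and the groups of CD13-negative cells lay close together. SBSN passed the filter through the double-positive libraries alone, so a difference was fixed by the filter and its values are a description. CDSN, an adhesion protein of corneocytes, changed by -2.34 (adjusted p of 5.97e-07) in double-negative and by -1.99 (adjusted p of 1.47e-06) in CD201-only cells. The same changes were -2.09 (adjusted p of 9.11e-07) and -2.16 (adjusted p of 1.06e-06) for FLG, filaggrin, which bundles keratins, and -2.07 (adjusted p of 8.77e-07) and -1.76 (adjusted p of 2.10e-06) for the small proline-rich protein SPRR3. SFN, a 14-3-3 protein that binds KRT17, was highest in CD201-only cells instead, at 1.31 (adjusted p of 6.50e-07) above double-positive cells, and its change in double-negative cells was -0.07 (adjusted p of 0.163). Of 14 genes of the wound response 5 were tested, and 8 stayed under 1 FPKM in every library. The 5 tested genes all fell in double-negative (median -1.42) and in CD201-only cells (median -1.60), each against double-positive cells. In double-negative against CD201-only cells 2 rose and 1 fell. The filter bears on these counts, since 3 of the 5 had a mean under 1 FPKM in at least 1 group and SERPINB2 reached it in double-positive cells alone. The elastase inhibitor PI3 was at 2.07 and 2.03 FPKM in double-negative cells, 4.06 and 2.70 FPKM in CD201-only cells, and 16.3 and 19.1 FPKM in double-positive cells, the order of KRT6A and KRT16. The cytokine gene IL1B was lowest in CD201-only cells, with a change of -3.83 (adjusted p of 1.60e-08) there and of -2.13 (adjusted p of 1.26e-07) in double-negative cells.

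**Figure D5:**
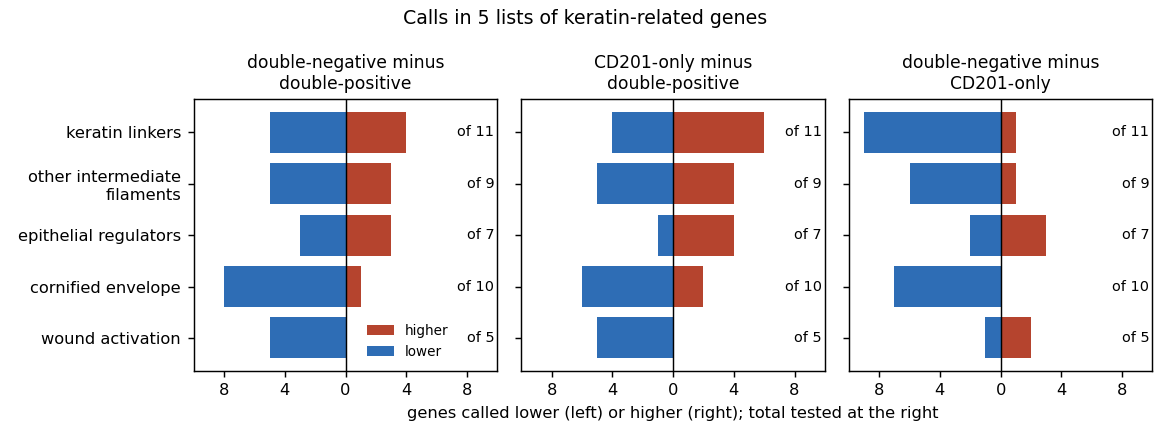
Number of genes called lower (left of 0) and higher (right of 0) in 5 lists of genes related to keratins, in the 3 comparisons, with the number tested at the right edge of each panel. Of 10 tested cornified envelope genes 8 are lower in double-negative and 6 in CD201-only against double-positive cells, and of 11 linker genes 9 are lower in double-negative against CD201-only cells. Of all tested genes 24.5%, 22.9% and 16.5% were called lower in these 3 comparisons.

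Markers of cell types that could carry keratins were set beside these results. Of all tested genes 66.6% were called in double-negative against double-positive and 58.7% in CD201-only against double-positive cells. The share in double-negative against CD201-only cells was 37.9%. Of 12 keratinocyte markers 8 stayed under 1 FPKM in every library and DSC3, KRTDAP and LOR were listed at 0 throughout, while the summed level of the list was 37.0 to 38.5 FPKM in double-negative, 65.3 to 65.6 FPKM in CD201-only and 47.8 to 48.7 FPKM in double-positive libraries. Most of that sum was COL17A1, and without it the other 11 markers summed to 7.32 to 7.54 FPKM in double-negative, 9.01 to 9.804 FPKM in CD201-only and 21.6 to 23.3 FPKM in double-positive libraries. The higher double-positive sum lay in FLG, at 11.1 and 10.3 FPKM there, and SBSN, at 7.33 and 6.96 FPKM there. TGM3 was instead lowest in double-positive cells, at 3.85 and 3.43 FPKM. Of the 4 tested, COL17A1 and the transglutaminase TGM3 rose and SBSN and FLG fell in double-negative and in CD201-only cells, each against double-positive cells, and 0 rose and 2 fell in double-negative against CD201-only cells. Of 12 markers of simple epithelia 7 were tested. Of these 5 rose and 2 fell in double-negative cells, with SPINT2 at 1.196 (adjusted p of 1.24e-07) and CLDN4 at -1.61 (adjusted p of 5.70e-07), and 6 rose and 0 fell in CD201-only cells, each against double-positive cells. The epithelial adhesion genes EPCAM and CDH1 were low, at most 3.93 and 3.09 FPKM. All 10 fibroblast markers were tested and their summed level was 4233 to 4243 FPKM in double-negative, 4852 to 4892 FPKM in CD201-only and 8588 to 8784 FPKM in double-positive libraries. Collagen COL1A1 was at 303 and 307 FPKM in double-negative cells, 246 and 242 FPKM in CD201-only cells, and 1721 and 1661 FPKM in double-positive cells. The surface protein THY1 was instead highest in double-negative cells, at 1644.5 and 1639 FPKM. It was at 1183 and 1167 FPKM in CD201-only cells and 1382 and 1358 FPKM in double-positive cells. Against double-positive cells THY1 rose by 0.26 (adjusted p of 2.61e-05) in double-negative and fell by 0.22 (adjusted p of 7.04e-05) in CD201-only cells. Of these markers 2 had a mean under 1 FPKM in at least 1 group. For 1 of them double-positive cells alone reached the filter, so a difference was fixed by it. Of the 10 markers 8 fell and 2 rose in double-negative, and 8 fell and 1 rose in CD201-only, against double-positive cells. In double-negative against CD201-only cells 8 rose and 1 fell, although the sum was lower in double-negative cells. The calcium-binding protein S100A4, at 1269 and 1271 FPKM in double-negative and 2568 and 2563 FPKM in CD201-only cells, was the marker that fell, and without it the sums were 2962 to 2975 FPKM in double-negative, 2289 to 2323 FPKM in CD201-only and 6403 to 6546 FPKM in double-positive libraries. Trophoblast markers summed to 160 to 162 FPKM, 210 to 211 FPKM and 175 FPKM in double-negative, CD201-only and double-positive libraries. HAND1 held much of the CD201-only sum, at 93.9 and 92.8 FPKM there. It was at 17.7 and 16.5 FPKM in double-negative and 36.7 and 34.7 FPKM in double-positive cells. IGFBP3 was instead lowest in CD201-only cells. Of 5 tested trophoblast markers 3 rose and 1 fell in CD201-only against double-positive cells. In double-negative cells 2 rose and 2 fell against either other group. Melanocyte markers summed to at most 1.55 FPKM in any library. Transcripts of the surface proteins used for sorting had changes in the direction of the gates, with ANPEP (CD13) at -2.08 in double-negative and -2.39 in CD201-only cells and PROCR (CD201) at -1.53 in double-negative cells, each against double-positive cells. The part that such other cells had in the keratin levels was not tested.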

How the data were processed

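Poly-A RNA of 6 libraries, 2 for each of 3 sorted groups, was measured. The deposited table holds FPKM that the authors made with STAR and Cuffnorm on hg19 (GRCh37), per the submitters' processing notes. The sources used here do not give versions, options or annotation. All 6 columns were matched to libraries by name, and 0 were left over.

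Values were taken as log2(FPKM + 1). The 12210 of 27788 genes whose mean reached 1 FPKM were fitted in limma 3.58.1 (R 4.3.3) with a coefficient per group and a variance trend, on 3 residual degrees of freedom and a prior of 3.95. P-values were adjusted by Benjamini-Hochberg over all genes of a comparison. The fit was also run on simulated data with independent normal noise of the fitted variances. That run shares the fit's assumptions, so it cannot speak to technical libraries, scaling or shared reads. Every keratin passing the filter is named. Others are given by count, with KRT3, KRT4 and those a statement turns on. From each list of related genes, only members among the 4 largest called changes of a comparison could be named, plus ANPEP, PROCR and KLF4. EPCAM and genes named for a level at or near 0 (TP63, DSC2, DSC3, DSG2, DSG3, KRTDAP, LOR) were chosen after their values were seen. The members and lists were chosen with earlier results of these data known. Depth was approximated from steps of low values in 46 genes with a single annotated transcript of at least 1000 nt, assuming fragments of 200 nt. Cuffnorm can rescale libraries, and rescaling by median ratios was an alternative. Tables and plots used pandas 2.3.3, matplotlib 3.10.9 and numpy 2.4.6 under Python 3.11.15. Other alternatives changed the pseudocount (0.1), the filter, quantile normalization, limma's trend, the libraries in the fit and the replicate block.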

Additional observations from a re-analysis of the deposited data

How the results depend on the processing

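Rescaling, quantile normalization, the pseudocount of 0.1, limma without trend or with the robust trend, fitting only the 4 libraries compared, and the replicate block left the keratin calls at 11, 7 and 11 in double-negative against double-positive, CD201-only against double-positive and double-negative against CD201-only cells, the same genes in the same direction. Median-ratio rescaling moved the median change of all genes in double-negative against double-positive cells to 0.00164, and the share of higher calls there was 48.1% rescaled against 63.2% as deposited. It moved the summed keratin FPKM to 3006 in double-negative and 2367 in double-positive cells. It turned round 4 changes that were not called, KRT7 (-0.0574), KRT13 (-0.0318) and KRT80 (-0.0489) in CD201-only against double-positive and KRT10 (-0.0261) in double-negative against CD201-only cells, and quantile normalization turned the last to -0.0425. Without the filter 41 keratins were tested, as members under 1 FPKM entered. In the 3 comparisons, in the same order, 19 (46.3%), 11 (26.8%) and 13 (31.7%) of them were called. Of all 19803 genes 44.3%, 37.1% and 21.6% were called. With a filter of 5 FPKM KRT13 and KRT80 were not tested. Leaving out a library in turn left an arm of 1 library, which the fit assumes to vary like the others. The calls of keratins then ran from 11 to 11, 7 to 8 and 10 to 11 over the 3 comparisons, and calls of all genes from 6819 to 7931, 5940 to 6724 and 2861 to 4872. Signs turned, with no call, for KRT10, KRT7 and KRT80. KRT10 ran from -0.163 to 0.0150 in double-negative against double-positive cells (0.0150 without double-negative replicate 2) and from -0.0834 to 0.0947 in double-negative against CD201-only cells, with -0.0834 without double-negative replicate 1 and -0.0184 without CD201-only replicate 1. In CD201-only against double-positive cells KRT7 ran from -0.0625 to 0.103 and KRT80 from -0.184 to 0.202, both lowest without double-positive replicate 1, and KRT80 was -0.0605 without CD201-only replicate 2. The summed keratin FPKM ran from 3113 to 3125 in double-negative, 4124 to 4193 in CD201-only and 2219 to 2285 in double-positive cells, and the basal and wound share from 0.85% to 0.88%, 1.84% to 1.86% and 6.59% to 6.95%. The cause of these moves was not tested. Equal replicate numbers were not taken as pairs, since the labels give no shared batch and the replicate differences correlated at 0.105, -0.123 and 0.146 between groups. With the replicate block 8110, 7189 and 4590 genes were called, against 8130, 7165 and 4632 without it. With crossed numbers, an alternative chosen after seeing the data, 7857 genes and 11 keratins were called between double-negative and double-positive cells. The number of fragments limits the lowest members most, KRT13, KRT14 and KRT80 in double-negative cells.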

Other observations

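Members under the filter of 1 FPKM were looked at in the fit without a filter, where low values limit what can be seen. KRT3, the type II chain of the cornea, was at 0.263 and 0.295 FPKM in double-negative cells, 0.292 and 0.370 FPKM in CD201-only cells, and 0.983 and 1.13 FPKM in double-positive cells. It was highest in the double-positive libraries and its limma change was -0.68 in double-negative (adjusted p = 0.000725) and -0.63 in CD201-only cells (adjusted p = 0.00116), each against double-positive cells. KRT34, a hair shaft keratin, KRT79 and KRT9, of palm and sole skin, were likewise lower in both CD13-negative groups, with KRT34 at -0.51 and -0.55. KRT4, the mucosal type II partner of KRT13, was at 0.0590 and 0.135 FPKM in double-negative cells, 0.838 and 0.5004 FPKM in CD201-only cells, and 0.803 and 0.622 FPKM in double-positive cells. It had the order of KRT13, low in double-negative cells alone, and changed there by -0.64 (adjusted p = 0.00916) against double-positive and by -0.60 (adjusted p = 0.0234) against CD201-only cells. KRT12, the corneal type I keratin, was the lone member under the filter that was called higher in double-negative cells, at 0.119 and 0.154 FPKM against 0 in both double-positive libraries, a level near 0. Of 29 members under the filter but above 0 somewhere, this fit called 8 (27.6%) in double-negative against double-positive, 4 (13.8%) in CD201-only against double-positive and 2 (6.9%) in double-negative against CD201-only cells. Over all 19803 genes in the fit the shares called were 44.3%, 37.1% and 21.6%.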
